A study of Homo sapiens with 6 samples.

Results

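U2OS cells in which both H3.X and H3.Y were targeted by siRNA are compared here with cells given luciferase siRNA. The comparison rests on 4 of the 6 arrays of a study of these histones, 2 labelled H3.X H3.Y and 2 labelled luciferase. The other 2 arrays carry RNA of cells given H3.Y siRNA alone, and enter only where the combined siRNA is set against it. All cells were the osteosarcoma line U2OS, an established human cell line, grown in the same medium, transfected 2 times with their siRNA and harvested at day 4. Luciferase is an insect enzyme without a counterpart in these cells, and its siRNA serves as the control for transfection. The labels do not say whether the combined group received a mixture of siRNAs or an siRNA that matches both genes. Replicates are called biological in the labels, but whether they came from separate cultures is not stated, so a p-value reflects how far these arrays spread, which may be technical. Described were all probe sets with exactly 1 gene symbol, which are 19460 of 33297 and stand for 18417 genes.

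Histone H3 is one of the core proteins that DNA is wound around in the nucleosome. Most H3 is made in S phase from clustered genes, whereas variants such as H3.3, CENP-A, H3.X and H3.Y are made from separate genes and take the place of the common H3 at some sites. H3.X and H3.Y are found in primates, and their levels in most cultured cells are low. The genes encoding them are H3Y2 and H3Y1, and 0 probe sets were named for either, so how far each siRNA lowered its target was not analysed here.

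The labelled cell type was set against marker genes. Of 17 osteosarcoma and osteoblast markers 15 were measured, and 8 of these lay above the median of all probe sets. Vimentin (VIM), the intermediate filament of mesenchymal cells, lay at 10.95 and 10.69 log2 units on the luciferase arrays, and SPARC, a bone matrix glycoprotein, at 10.34 and 10.50. The osteoblast marker IBSP was low, at 3.13 and 3.09. SP7, at 5.38 and 5.41, lay slightly below the median luciferase level of all probe sets, 5.76. Of these markers 2 rose after the combined siRNA, COL1A1 and TNFRSF11B, and the log2 of the summed marker level was 12.04 to 12.17 in luciferase cells and 12.85 to 12.92 after the combined siRNA. Among 11 measured epithelial markers EPCAM rose on both of its probe sets, with the summed level at 12.18 to 12.51 and 12.62 to 12.71, most of it from KRT8 and KRT18. Among 8 neural markers STMN2 rose, at 4.11 and 3.90 in luciferase cells and 5.58 and 5.66 after the combined siRNA. The median difference of the neural markers was log2 -0.18. The log2 of their summed level was 8.243 to 8.373 in luciferase cells and 8.173 to 8.235 after the combined siRNA. Blood, endothelial, myogenic and adipocyte markers had 0 calls each, with the log2 of the summed blood markers at 8.79 to 9.08 on the luciferase arrays and 8.32 to 8.80 on the H3.X H3.Y arrays. PTPRC, which all white blood cells carry, lay at 1.89 and 1.97 in luciferase cells and 2.17 and 2.06 after the combined siRNA. The part of other cell types in any result was not tested.

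Genes were called in both directions after the combined siRNA. In limma, with 1 mean for each of the 3 groups and Benjamini-Hochberg adjustment over all 33297 probe sets, 519 of the 19460 passed an adjusted p of 0.05. Of these 247 rose, which is 1.27% of those described, and 272 fell, or 1.4%. They named 239 genes that rose and 254 that fell. A further measure is whether both H3.X H3.Y arrays lay above, or both below, both luciferase arrays, without overlap. This held for 27.5% of all probe sets on the higher side and 26.1% on the lower, the background for such counts. That background depended on level. With probe sets ordered by level into 10 equal bins, it was 17.3% higher and 14.7% lower in the dimmest. In the brightest it was 29.6% and 47.0%, so bright families have a larger background on the lower side. Absence of overlap held for all 247 probe sets that rose and all 272 that fell, so for a called gene it adds nothing to the call. The middle 90% of all differences lay between log2 -0.58 and 0.58, and the median was 0.01. Differences are given as log2 of H3.X H3.Y siRNA minus luciferase siRNA, ± the standard error of the fit, with 2 arrays in each group, and "rose" and "fell" are used only of genes past that adjusted p.

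Genes that fell were brighter in control cells than genes that rose. The median luciferase level was 7.95 log2 units for the probe sets that fell, 6.12 for those that rose and 5.76 for all. This level is itself a term of the difference, so part of that gap follows from the calling. Probe sets were also ordered by mean level over all 6 arrays into 10 equal bins of 1946. In the brightest bin, whose median difference was -0.09, 55 fell and 19 rose. In the fifth bin, near the middle of the range, 11 fell and 35 rose around a median of 0.03. Protein-coding genes made up 237 of the 247 probe sets that rose and 270 of the 272 that fell. Of 178 small nucleolar RNA and 37 small nuclear RNA probe sets 0 passed, with medians of -0.19 for each, and 3 of 690 long noncoding RNA probe sets rose and 1 fell. In bulk RNA such as this, fewer cells of a kind and less RNA per cell cannot be told apart.

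**Figure D1:**
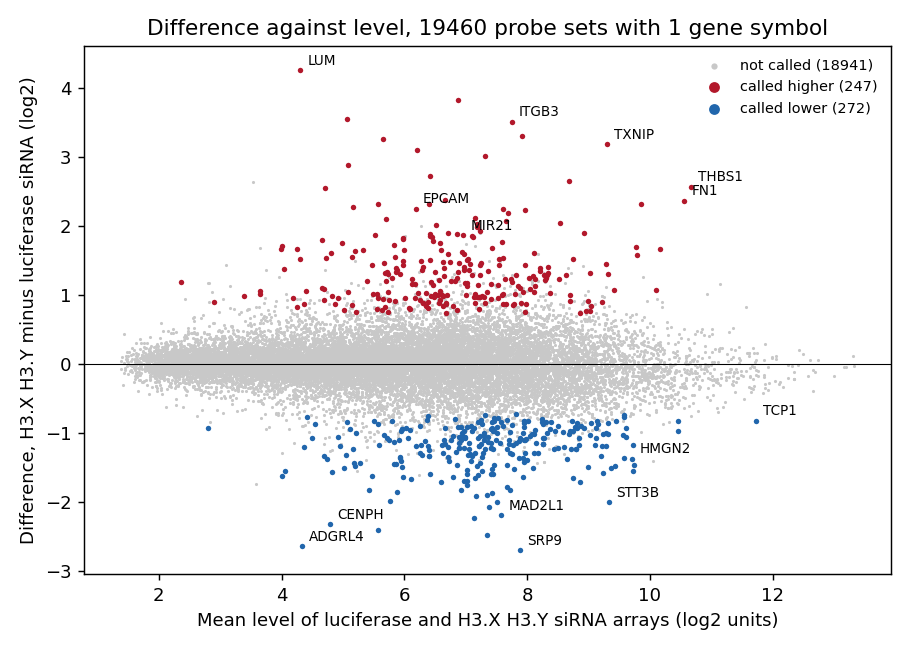
Each point is a probe set with 1 gene symbol, with its mean level over the luciferase and H3.X H3.Y arrays on the x axis (log2 units) and the difference between the groups on the y axis (log2). Red points are the 247 probe sets that rose and blue points the 272 that fell. Their median luciferase levels were 6.12 and 7.95, a gap that follows in part from the calling, since this level enters the difference.

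These calls need both arrays of each group. In fits that left out any 1 of the 4 arrays compared, limma called 0 probe sets with 1 symbol, and between 2010 and 2646 had an unadjusted p under 0.05, against 3723 with all arrays. The sizes of the differences were followed through every fit for 252 called probe sets, which include nearly all of the called genes named here. Of these, 0 moved by over 1.5 times in any such fit. A call already favours a small spread against the difference, so this is in part a result of selection. Their direction could not change in such fits, because the luciferase and H3.X H3.Y arrays of every called probe set did not overlap. Of the 39 called genes that had several probe sets, 3 had identical values on all of them. Of the other 36, 33 had all probe sets on the same side of 0 and 13 had all of them called.

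To look beyond single genes, 106 families were formed from gene symbols. In 29 families genes were called higher and not lower, in 28 lower and not higher, in 17 in both directions, and in 32 none was called. The median difference of a family was above 0.1 in 19 of them and below -0.1 in 22. In fits without 1 of the 4 arrays compared, 19 of these 41 medians moved by over 1.5 times and 0 changed sign. Most families of cell division, RNA processing and protein synthesis lay on the lower side, and most families of the extracellular matrix, cell adhesion and growth factors on the higher side. Counts of calls in each are read against the 1.27% and 1.4% of all probe sets.

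**Figure D2:**
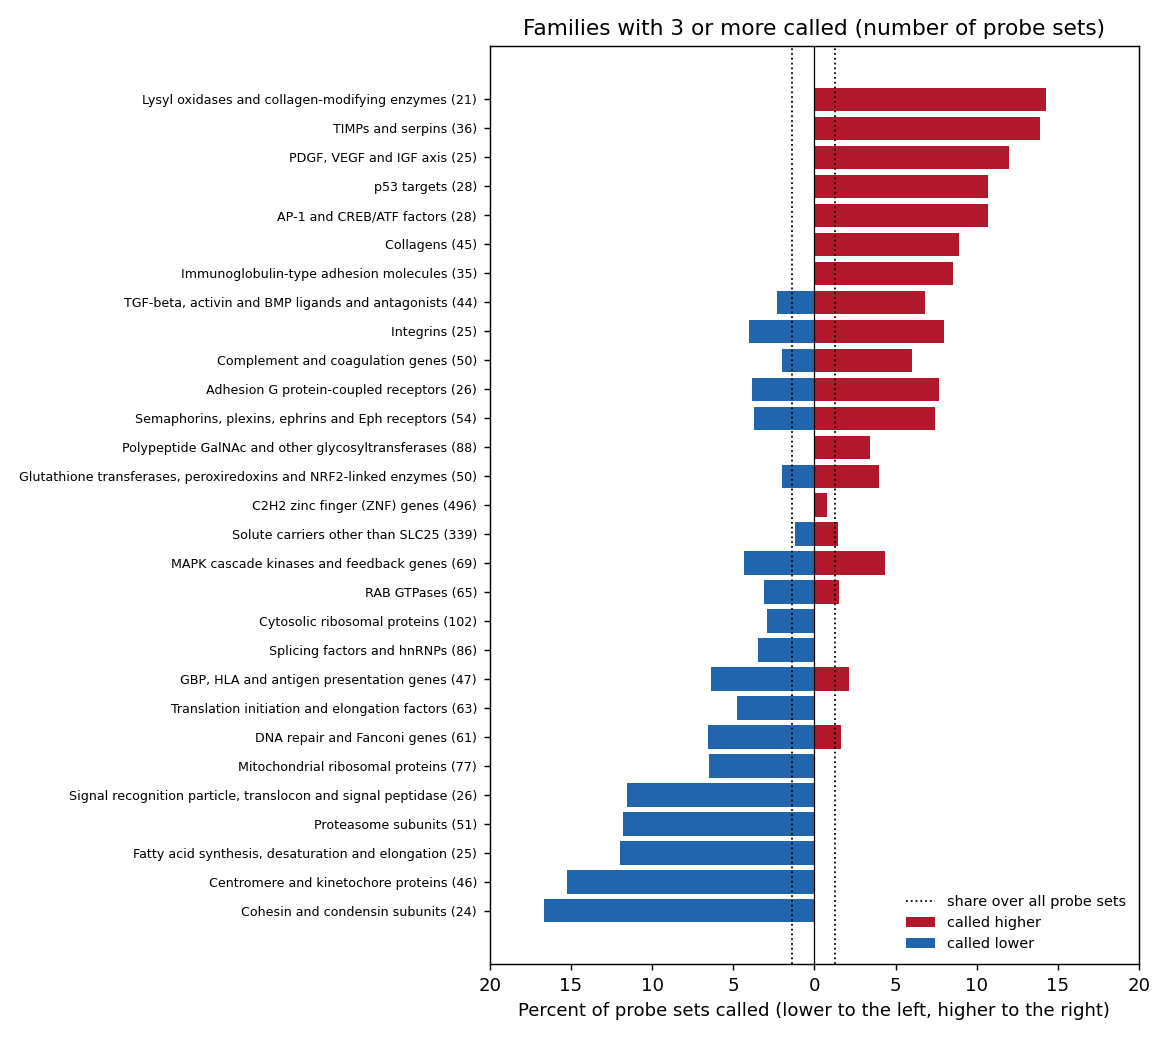
Bars give the percent of probe sets called in each of 29 families with 3 or more calls, lower to the left and higher to the right, with the number of probe sets in parentheses. Dotted lines mark the shares over all probe sets, 1.4% lower and 1.27% higher; cohesin and condensin subunits reach 16.7% lower and collagen-modifying enzymes 14.3% higher.

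The family with the lowest median was that of centromere and kinetochore proteins, the machinery that ties chromosomes to the spindle. Of 46 probe sets 7 fell and 0 rose, 41 were below luciferase at all, 32 of them without overlap of the arrays, and the median was -0.42. MAD2L1, the spindle checkpoint protein that holds back anaphase, went from 8.54 and 8.80 to 6.37 and 6.59 log2 units. CENPH, a protein of the inner kinetochore, was at 5.56 and 6.33 on the luciferase arrays and 3.55 and 3.69 on the H3.X H3.Y arrays, close to the dim end of the array. KNL1, the scaffold that recruits checkpoint kinases, was at 7.73 and 7.83 in luciferase cells and 6.25 and 6.25 after the combined siRNA (log2 -1.53 ± 0.14). For all of these the arrays of the groups stood clear of each other. NSL1, a subunit of the MIS12 complex that links the inner and outer kinetochore, fell by less (log2 -1.12 ± 0.15). NUF2 (log2 -1.07 ± 0.16), SKA2 (-1.18 ± 0.19, with -0.98 ± 0.20 on a second probe set that did not pass) and KNSTRN (-0.97 ± 0.16) were the other members that fell, and they are named beyond the first 4 because they complete the count.

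Cohesin and condensin, the ring complexes that hold sister chromatids together and compact them, had 4 of 24 probe sets that fell, 0 that rose, and a median of -0.30. They were divided evenly between the complexes. The cohesin subunit SMC1A went from 8.39 and 8.38 to 7.22 and 7.28 (log2 -1.14 ± 0.13) and its partner STAG2, which is often mutated in tumours, from 6.93 and 7.20 to 5.67 and 5.79 (-1.33 ± 0.16). The condensin subunits NCAPG (log2 -1.02 ± 0.14) and SMC4 (-1.21 ± 0.20) completed the set. Of 45 kinesin probe sets, KIF14, a motor of cytokinesis, fell (log2 -1.46 ± 0.18) and KIF13A, a motor that carries vesicles, rose (0.84 ± 0.13). Among 28 cyclin probe sets cyclin A2 (CCNA2), which drives S phase and entry into mitosis, was the 1 call, at 9.73 and 9.73 on the luciferase arrays and 8.16 and 8.32 on the H3.X H3.Y arrays. Its 4 arrays left a gap of over 1 log2 unit between the groups, and the median of the cyclins was -0.01.

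DNA polymerases and the MCM helicase family lay mostly on the lower side, by small amounts. Of 55 probe sets 40 lay below luciferase without overlap and 4 above, against 26.1% and 27.5% of all, and the median was -0.36. A single member passed, the replicative helicase subunit GINS4 (log2 -1.61 ± 0.13, from 8.02 and 8.01 to 6.36 and 6.45). Nucleotide synthesis showed the same shape with a median of -0.18 and 1 call in 39, RRM1, the large subunit of ribonucleotide reductase (log2 -1.07 ± 0.13). Replication-dependent histones, which are made from near-identical gene copies so that a probe set may read several, had a median of -0.35 over 56 probe sets, 33 without overlap on the lower side, and H2AC15 as the 1 that fell (-1.35 ± 0.20). Outside the clusters, H2AZ2 at -0.74 ± 0.13 and H2AX at -0.63 ± 0.13 did not pass, and these 13 variant and linker histone probe sets had a median of -0.05. Tubulins and their cofactors had 0 calls in 38 and a median of -0.17, and TUBG1 of the centrosome, the member with the smallest p, lay at -0.69 ± 0.13 (adjusted p = 0.063).

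HMMR, which binds hyaluronan at the surface and microtubules inside the cell, went from 7.65 and 7.98 to 5.91 and 6.33 (log2 -1.70 ± 0.26). Several regulators of mitosis outside these families also fell. Apart from HMMR, they were chosen after their values were seen, so their direction adds no independent evidence. CDC20, the activator of the anaphase-promoting complex, stood at 10.55 and 10.44 in luciferase cells and 8.92 and 8.96 after the combined siRNA (log2 -1.55 ± 0.16, adjusted p = 0.018). Polo-like kinase 1 (PLK1), which drives centrosome maturation and mitotic entry, stood at 9.89 and 9.77 in luciferase cells and 8.74 and 8.89 after the combined siRNA (-1.01 ± 0.14, adjusted p = 0.028). Securin (PTTG1), the kinase NEK2, the spindle proteins SPAG5 and HAUS6 and the cytokinesis scaffold anillin (ANLN) fell between log2 -0.77 for NEK2 and -1.59 for HAUS6, whose second probe set, at -1.60 ± 0.39, did not pass. RB1, the retinoblastoma protein that restrains entry into S phase, also fell, from 7.83 and 8.02 to 6.66 and 6.74 (log2 -1.23 ± 0.15).

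The letters of the promoters of some of these genes are shown because cell cycle genes are known for 2 short elements near their start. The CCAAT box (CCAAT, or ATTGG on the other strand) binds the factor NF-Y, and the cell cycle homology region (searched as TTTGAA, or TTCAAA on the other strand) binds complexes that repress these genes outside G2 and M phase. Shown are the 150 bases before the RefSeq start in GRCh38.p14, written 5′ to 3′ along the gene. Exact matches to the searched letters are in capitals. CDC20 is read on the plus strand at chr1:43358831-43358980, PLK1 on the plus strand at chr16:23678739-23678888, and CCNA2 on the minus strand at chr4:121823884-121824033.
CDC20: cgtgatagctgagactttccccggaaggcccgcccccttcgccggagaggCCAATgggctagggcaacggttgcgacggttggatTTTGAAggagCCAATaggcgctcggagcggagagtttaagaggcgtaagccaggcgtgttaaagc
PLK1: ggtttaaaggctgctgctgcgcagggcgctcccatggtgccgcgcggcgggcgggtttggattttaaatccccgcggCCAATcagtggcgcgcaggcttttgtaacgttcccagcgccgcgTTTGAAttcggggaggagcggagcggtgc
CCNA2: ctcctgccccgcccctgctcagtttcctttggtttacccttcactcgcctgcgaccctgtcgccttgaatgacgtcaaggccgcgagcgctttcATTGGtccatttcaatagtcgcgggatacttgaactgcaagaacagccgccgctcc
In these stretches CDC20 holds 2 CCAAT boxes and 1 TTTGAA, PLK1 holds 1 of each, and CCNA2 holds 1 CCAAT box. Variants of the letters were not searched, so the lack of TTTGAA in CCNA2 does not show that the second element is absent. Over the window from 250 bases before to 50 after the start, promoters were at hand for 216 of the 254 genes that fell, 187 of the 239 that rose and 14239 of all 18417 measured genes. CCAAT stood in 35.6% of the promoters of genes that fell, 38.0% of those that rose and 36.3% of all measured genes. TTTGAA stood in 13%, 9.63% and 11.9%. The shares among genes that fell lay within a few percentage points of those among all measured genes, and no test was run on them. A match is only a run of letters, not a site shown to be bound.

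Genes of DNA repair and the Fanconi pathway, 61 probe sets, had a median of -0.19, with 32 below luciferase without overlap and 9 above. The median was between -0.29 and -0.079 without 1 array. MDC1, which gathers repair factors at broken DNA, fell on 2 probe sets with identical values (log2 -1.18 ± 0.16). The checkpoint kinase ATR fell too (log2 -0.76 ± 0.13). XRCC4, a ligation factor of end joining, went the other way, at 7.30 and 7.27 on the luciferase arrays and 8.38 and 8.44 on the H3.X H3.Y arrays (log2 1.13 ± 0.13). Targets of p53, the tumour suppressor that arrests damaged cells, lay on the higher side, with 17 of 28 probe sets above luciferase without overlap, 1 below and a median of 0.30. The 3 that rose were PLK2, from 9.0 and 8.84 to 10.75 and 10.48, TP53INP1, from 6.14 and 6.40 to 7.78 and 7.58, and the cell cycle inhibitor CDKN1A, from 8.02 and 7.70 to 8.98 and 8.80. The BCL2 family had 0 calls in 19 probe sets and the caspases and inhibitors of apoptosis 0 in 24, with medians of 0.11 and 0.02, the first between 0.022 and 0.15 without 1 array. ATG5, needed to build autophagosomes, fell (log2 -1.27 ± 0.17) in a family of 39 autophagy probe sets whose median was 0.12, or between 0.049 and 0.17 without 1 array.

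**Figure D3:**
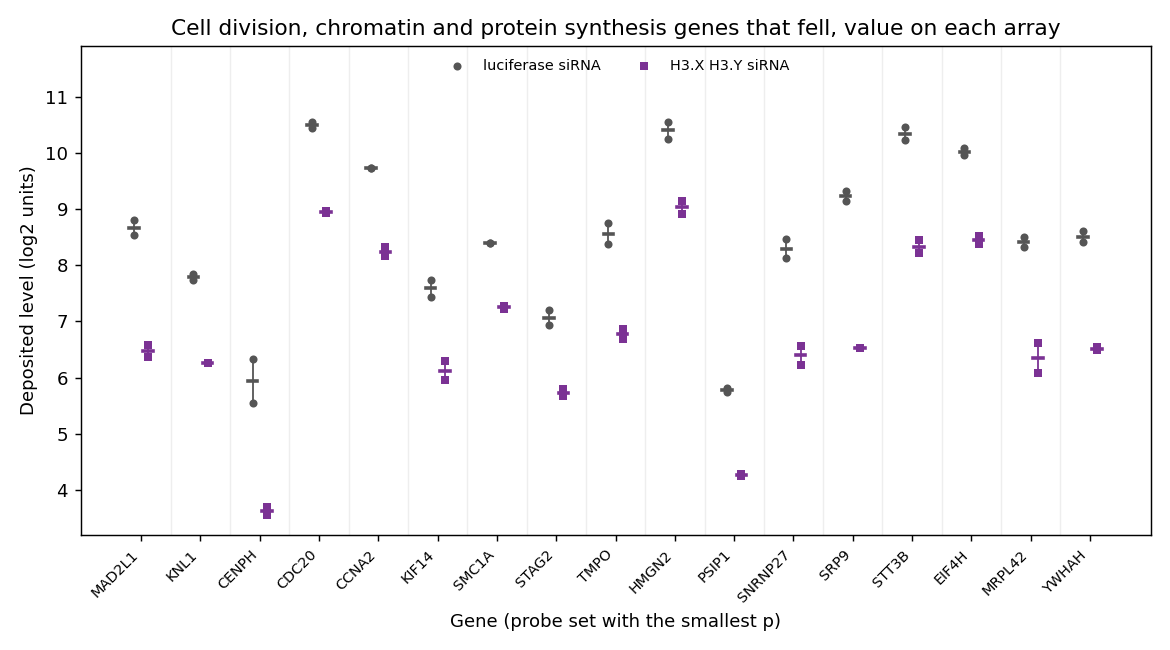
Deposited log2 levels of 17 genes of cell division, chromatin, protein synthesis and secretion on each luciferase array (circles) and each H3.X H3.Y array (squares), with the group mean as a short bar and a thin line joining the arrays of a group. In each gene both squares lie below both circles, with SRP9 and CENPH the farthest apart.

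Genes for nuclear proteins outside cell division were also among those that fell. Splicing factors and hnRNPs had 3 of 86 probe sets that fell, 76 below luciferase at all and a median of -0.30. Their calls were SNRPD1, a core protein of spliceosomal particles (log2 -0.95 ± 0.14), SNRPC of the U1 particle (-1.09 ± 0.18) and PRPF3 of the U4/U6 particle (-0.92 ± 0.15). SNRNP27, a protein of the assembled tri-snRNP, fell by more, at 8.13 and 8.46 in luciferase cells and 6.22 and 6.57 after the combined siRNA (log2 -1.90 ± 0.20). Nuclear pore and transport proteins had a median of -0.32 with 52 of 58 probe sets below luciferase, and KPNA3, an importin that carries cargo into the nucleus, as the 1 that fell (-1.11 ± 0.12). TMPO, which encodes the lamina-associated polypeptides, went from 8.37 and 8.75 to 6.68 and 6.86 (log2 -1.79 ± 0.19), while the other 17 probe sets of the lamina did not pass and the family's median was -0.07. Of 52 RNA helicase probe sets DHX15, which takes spliceosomes apart, fell (-0.85 ± 0.13). ENY2, shared by the SAGA and mRNA export complexes, went from 8.49 and 8.79 to 6.60 and 7.01 (log2 -1.83 ± 0.19), and the muscleblind splicing factors parted, with MBNL1 falling (-1.23 ± 0.15) and MBNL2 rising (1.35 ± 0.16). The muscleblind genes were chosen after their values were seen.

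Proteins that bind nucleosomes or chromatin without being histones were also looked up after their values were seen. HMGN2, which binds nucleosome cores and loosens chromatin, fell on all 3 of its probe sets (log2 -1.46 ± 0.21, -1.37 ± 0.17 and -1.36 ± 0.16). Its brightest probe set went from 10.22 and 10.71 to 8.83 and 9.18. HMGN4, a retrogene of HMGN2, fell (-1.06 ± 0.16), and the sequences of these genes are close enough that probe sets may share transcripts. PSIP1, which tethers factors to transcribed chromatin, fell on both probe sets (-1.5 ± 0.14 and -1.63 ± 0.19), as did NUCKS1 (-1.18 ± 0.19 and -1.48 ± 0.19). DEK (log2 -1.03 ± 0.17) and the heterochromatin protein CBX3 (-0.84 ± 0.13) fell by about the same amount. TET2, which oxidises methylated cytosine, was among those that rose (1.20 ± 0.17, with 0.72 ± 0.13 on a probe set that did not pass). Lysine demethylases and methyltransferases had 0 calls in 65 probe sets, with 22 above and 23 below luciferase without overlap and a median of 0.04. PRDM1 at 1.18 ± 0.21 was nearest to the threshold (adjusted p = 0.052).

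Transcription factor families held few calls. HOX genes had 0 calls in 27 probe sets and a median of 0.01, SOX factors 0 in 20 and Kruppel-like and SP factors 0 in 26. Among AP-1 and CREB factors, which answer to growth factors and cyclic AMP, 3 of 28 rose. FOSL2, a FOS relative, was at 7.81 and 7.46 on the luciferase arrays and 9.20 and 8.89 on the H3.X H3.Y arrays, CREB5 at 6.09 and 6.14 on the luciferase arrays and 7.19 and 7.04 on the H3.X H3.Y arrays, and CREB3L1, which is anchored in the endoplasmic reticulum, at 6.01 and 5.65 on the luciferase arrays and 7.23 and 6.82 on the H3.X H3.Y arrays. Their luciferase and H3.X H3.Y arrays did not overlap, while FOS itself lay at 10.14 and 8.58 in luciferase cells and 9.21 and 8.08 after the combined siRNA, with overlap. Nuclear receptors gave 2 that rose of 41, the mineralocorticoid receptor NR3C2 (log2 1.02 ± 0.17) and the vitamin D receptor VDR (1.02 ± 0.17). FOXN3, a forkhead repressor, rose (1.46 ± 0.14). Of 496 zinc finger (ZNF) probe sets 4 rose (0.806%), fewer than the 1.27% of all, yet 180 lay above luciferase without overlap and 85 below, and the median was 0.09. ZNF362 (log2 1.03 ± 0.14) and ZNF365 (1.04 ± 0.16) led them. The thymocyte factor TOX was at 3.73 and 4.33 in luciferase cells and 6.47 and 6.14 after the combined siRNA and SNAI2, the SLUG repressor of epithelial genes, at 7.05 and 6.66 in luciferase cells and 9.57 and 8.61 after the combined siRNA, a wide spread between both H3.X H3.Y arrays that left the groups apart. Chosen after their values were seen, TBX3 (log2 1.36 ± 0.13), RUNX1 (0.95 ± 0.14), STAT3 (0.85 ± 0.13) and the clock factor BMAL1 (1.65 ± 0.24) also rose.

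Several families of the extracellular matrix had calls on the higher side. Collagens had 4 of 45 probe sets that rose, 0 that fell, 21 above luciferase without overlap and 2 below, and a median of 0.13, which was between 0.032 and 0.24 without 1 array. COL1A1, the main chain of bone collagen, was at 9.06 and 8.93 on the luciferase arrays and 10.73 and 10.42 on the H3.X H3.Y arrays. COL11A1, a fibril-nucleating collagen, went from 5.10 and 5.09 to 6.35 and 6.25 (log2 1.21 ± 0.13), COL6A3 of the pericellular beaded filaments from 8.83 and 8.70 to 9.76 and 9.56 (0.90 ± 0.15), and COL5A1 from 5.92 and 5.64 to 6.83 and 6.60 (0.94 ± 0.16). COL1A2, the partner chain of COL1A1, lay at 4.91 and 4.78 in luciferase cells and 5.38 and 5.09 after the combined siRNA and did not pass (log2 0.39 ± 0.15). Enzymes that modify or fold collagen had 3 of 21 that rose, 16 above luciferase without overlap, 1 below and a median of 0.28. These were LOXL4, a lysyl oxidase that cross-links fibrils, from 6.49 and 6.47 to 8.80 and 8.67, the collagen chaperone SERPINH1, from 8.66 and 8.65 to 9.97 and 9.97, and the prolyl hydroxylase P4HA2, from 8.81 and 8.95 to 9.99 and 9.91. In each of the 3 the arrays of the groups stood over 0.9 log2 units apart.

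Other matrix genes rose by more but as few members of their families. Lumican (LUM), a small proteoglycan that spaces collagen fibrils, was at 2.39 and 1.96 on the luciferase arrays and 6.29 and 6.59 on the H3.X H3.Y arrays, so its luciferase level was at the dim end of the array and its fold depends on that floor. It was the 1 call among 15 small leucine-rich proteoglycans. HAPLN1, which links hyaluronan to proteoglycans, was at 5.76 and 5.84 on the luciferase arrays and 8.85 and 8.79 on the H3.X H3.Y arrays. Fibronectin (FN1) was at 9.40 and 9.34 in luciferase cells and 11.93 and 11.55 after the combined siRNA and thrombospondin 1 (THBS1) at 9.80 and 8.95 in luciferase cells and 12.02 and 11.87 after the combined siRNA, both among the brightest genes that rose, and they were the 2 calls among 30 probe sets of matricellular proteins. Of the matrix metalloproteinases, 2 of 23 rose, the collagenase MMP13 at 3.95 and 3.33 in luciferase cells and 6.94 and 6.13 after the combined siRNA and the membrane-bound MMP14 at 6.0 and 6.30 in luciferase cells and 7.65 and 7.59 after the combined siRNA (log2 1.47 ± 0.21). Of 36 TIMP and serpin probe sets 5 rose and 0 fell, 4 of them for inhibitors and 1 for SERPINH1, the collagen chaperone already counted with the collagen-modifying genes. TIMP3, which stays bound to the matrix, rose on both probe sets (log2 2.19 ± 0.32 and 1.87 ± 0.20), and the protease inhibitors SERPINE2 (1.46 ± 0.18) and SERPINI1 (0.83 ± 0.14) rose too. Laminins and other basement membrane genes had 0 calls in 14, with LAMB3 at 1.27 ± 0.22 and LAMB1 at -0.69 ± 0.14, and ADAM and ADAMTS proteases 0 in 46, with ADAM12 at 1.72 ± 0.34 (adjusted p = 0.068). ESM1, the secreted proteoglycan endocan, went down, at 8.25 and 8.24 on the luciferase arrays and 5.63 and 6.39 on the H3.X H3.Y arrays. EDIL3 (log2 1.69 ± 0.22), SRPX (1.29 ± 0.14) and the collagen receptor DDR1 on 3 probe sets (each between 1.23 and 1.25) were chosen after their values were seen, and all rose. The DDR1 probe sets have nearly the same values and may not be independent readings.

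**Figure D4:**
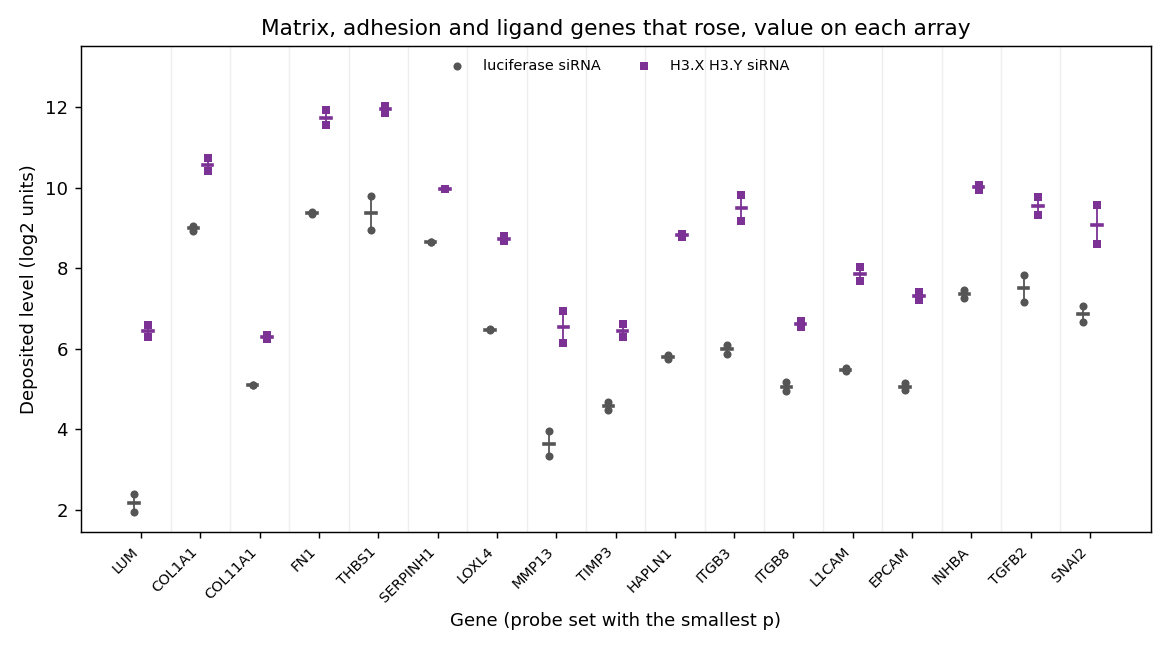
Deposited log2 levels of 17 matrix, adhesion and ligand genes on each luciferase array (circles) and each H3.X H3.Y array (squares), with the group mean as a short bar and a thin line joining the arrays of a group. In every gene both squares lie above both circles, and LUM starts from the dimmest level, at 2.39 and 1.96 log2 units.

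Cell surface adhesion genes were called in both directions. Of 25 integrins, which bind the matrix from the cell, 2 rose and 1 fell. The beta 3 subunit ITGB3 was at 6.10 and 5.88 on the luciferase arrays and 9.83 and 9.19 on the H3.X H3.Y arrays, the beta 8 subunit ITGB8 at 4.96 and 5.17 in luciferase cells and 6.69 and 6.54 after the combined siRNA, and the alpha 4 subunit ITGA4 went down from 6.18 and 6.39 to 4.58 and 4.75 (log2 -1.62 ± 0.19). Immunoglobulin-type adhesion molecules had 3 of 35 that rose, L1CAM, a neural adhesion molecule, from 5.52 and 5.44 to 8.02 and 7.69, CADM4 (log2 1.29 ± 0.16) and NCAM2 (0.96 ± 0.15). The desmosomal cadherin DSG2 was the 1 of 40 cadherins that rose (1.10 ± 0.14). EPCAM, an epithelial adhesion molecule, went from 4.97 and 5.14 to 7.41 and 7.21 on one probe set and from 4.96 and 5.15 to 7.69 and 7.88 on the other. Both rose (log2 2.25 ± 0.18 and 2.73 ± 0.31), while E-cadherin (CDH1, 0.59 ± 0.14), CLDN4 (0.70 ± 0.17) and KRT18 (0.08 ± 0.24) did not pass. Claudins and junction proteins had 0 calls in 46, tetraspanins 0 in 29 and keratins 0 in 61, each with a median of 0.00. The surface peptidases DPP4, at 6.18 and 5.98 in luciferase cells and 8.39 and 8.02 after the combined siRNA, and FAP (log2 1.66 ± 0.19), which are close relatives, rose, FAP being chosen after its value was seen.

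Protocadherins, neural-type cadherins encoded by gene clusters, lay above luciferase with no call. Of 41 probe sets 27 lay above luciferase without overlap and 6 below, and their median of 0.35 was the highest of the families. PCDHA5 at 0.76 ± 0.13 (adjusted p = 0.054) and PCDHB8 at 0.95 ± 0.18 (adjusted p = 0.06) were nearest to the threshold. All 13 probe sets of the alpha cluster and 16 of 18 of the beta cluster were above luciferase. Genes of the alpha cluster share their last exons and those of the beta cluster resemble each other closely, so these probe sets may not be independent readings.

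Guidance molecules, which steer axons and vessels and signal through small GTPases, had 4 of 54 that rose and 2 that fell. SEMA7A, an anchored semaphorin that binds integrins, was at 8.59 and 8.78 on the luciferase arrays and 11.05 and 10.98 on the H3.X H3.Y arrays. Its H3.Y values of 10.62 and 9.48 also exceeded the control. The semaphorin and VEGF co-receptor NRP1 rose (log2 1.40 ± 0.15), and SEMA5A (-1.0 ± 0.14) and SEMA3C (-0.91 ± 0.13) fell.

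Genes of the cytoskeleton were called in both directions. TIAM2, an activator of RAC, rose (log2 1.5 ± 0.24), and ARHGAP11A, which acts at the cytokinetic furrow, fell (-1.36 ± 0.14). Actin-like ACTBL2 was at 3.57 and 3.02 on the luciferase arrays and 6.88 and 6.80 on the H3.X H3.Y arrays and the smooth muscle protein calponin (CNN1) at 5.70 and 5.71 in luciferase cells and 6.67 and 6.79 after the combined siRNA, the 2 that rose among 36 probe sets of actins and contractile genes. Of the myosins MYO1D rose (log2 1.29 ± 0.22) and MYH15 fell (-0.83 ± 0.14), and of the septins and formins DAAM1 rose (1.33 ± 0.17) and SEPTIN11 fell (-1.24 ± 0.14).

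Secreted growth factors of the TGF-beta family were called in both directions. Of 44 ligands and antagonists 3 rose and 1 fell, with 18 above luciferase without overlap and 5 below. INHBA, the activin A chain, was at 7.46 and 7.25 on the luciferase arrays and 9.95 and 10.07 on the H3.X H3.Y arrays (log2 2.66 ± 0.24). TGFB2 was at 7.84 and 7.16 on the luciferase arrays and 9.77 and 9.34 on the H3.X H3.Y arrays, where the replicates were far apart in both groups but did not overlap, and TGFB3 at 5.23 and 5.55 in luciferase cells and 6.29 and 6.32 after the combined siRNA (0.91 ± 0.15). BMP6 went down from 6.98 and 6.79 to 5.97 and 5.58 (log2 -1.11 ± 0.17). Among 24 receptor and SMAD probe sets 0 were called, which in so few is near the share of all probe sets. Of these 24, 11 lay above luciferase without overlap and 7 below. TGFBR2 lay at 0.61 ± 0.14 (adjusted p = 0.096 in limma) and ACVR1C at 0.81 ± 0.17. PMEPA1, a target and inhibitor of this pathway chosen after its value was seen, went from 8.17 and 7.77 to 9.99 and 9.77.

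The PDGF, VEGF and IGF axis had 3 of 25 that rose and a median of 0.20, PDGFC (log2 1.32 ± 0.19), VEGFC (0.86 ± 0.14) and the receptor IGF1R (1.5 ± 0.19, and 0.82 ± 0.16 on a probe set that did not pass). The fibroblast growth factors FGF1, at 7.72 and 7.85 in luciferase cells and 6.19 and 6.58 after the combined siRNA, and FGF5, at 7.33 and 7.52 in luciferase cells and 5.75 and 6.31 after the combined siRNA, fell, the 2 calls in 30. The WNT pathway had 0 calls in 55, with FZD4 at 0.58 ± 0.14, and the EGF family 0 in 15, with ERBB3 at 0.71 ± 0.13. The Notch ligand JAG1 rose (log2 0.97 ± 0.16).

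Inside the cell, MAP kinase genes split evenly, with 3 of 69 that rose and 3 that fell. The phosphatase DUSP16 (log2 1.44 ± 0.13) and SPRY2 (1.44 ± 0.13), which damp the cascade, rose together with the kinase MAP3K1, the third call, whereas SPRED1, another damper, fell (-0.99 ± 0.13) as did the kinases MAP3K20 (-1.17 ± 0.14) and MAP4K5. YWHAH, the 14-3-3 eta adaptor, was at 8.41 and 8.60 on the luciferase arrays and 6.48 and 6.54 on the H3.X H3.Y arrays, and the other 7 probe sets of that family did not pass. GNAQ, the alpha subunit that couples receptors to phospholipase C, fell on both probe sets (log2 -1.91 ± 0.24 and -1.49 ± 0.20). Adhesion G protein-coupled receptors had the fall of ADGRL4, from 5.40 and 5.89 to 2.89 and 3.13, and rises of ADGRG1 (1.53 ± 0.15) and ADGRL3 (1.38 ± 0.17). PDE5A, which breaks down cyclic GMP, went from 4.32 and 4.52 to 6.83 and 6.64. Chosen after their values were seen, SGK1 (log2 1.60 ± 0.20), PIK3IP1 (1.39 ± 0.21) and SESN3 (1.62 ± 0.17), which act in or against PI3-kinase and TOR signalling, rose, and the muscarinic receptor CHRM3 rose from a dim level (1.76 ± 0.18).

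Immune genes that rose were few in number, but in several families their share exceeded the 1.27% of all probe sets. It was 4.88% for chemokines, 5.26% for interferon-induced genes, 6.0% for complement and coagulation and 4.17% for the TNF family. It was 2.13% for GBP, HLA and antigen presentation genes, 1.47% for TRIM proteins and 1.22% for interleukins and their receptors. Of the GBP, HLA and antigen presentation probe sets 6.38% fell, against 1.4% of all, and these 3 all read PSMB8. Of 41 chemokines CCL4, at 3.17 and 3.65 in luciferase cells and 5.17 and 4.98 after the combined siRNA, and CXCL10, at 2.30 and 2.61 in luciferase cells and 3.40 and 3.30 after the combined siRNA, rose, and both stayed in the dim part of the array. Interferon-induced genes had 2 of 38 that rose, 18 above luciferase without overlap and 2 below, and a median of 0.26. IFIT3, which binds foreign RNA, was at 5.03 and 5.37 in luciferase cells and 6.28 and 6.85 after the combined siRNA, and IFI30, a lysosomal thiol reductase, at 8.27 and 8.21 in luciferase cells and 9.24 and 9.06 after the combined siRNA. TRIM22 (log2 1.21 ± 0.17) and one probe set of GBP2 (0.99 ± 0.14, and 0.64 ± 0.22 on another that did not pass) rose as well. Complement and coagulation genes had 3 of 50 that rose, the receptor C3AR1, from 6.20 and 6.11 to 8.49 and 7.90, the component C3, from 5.73 and 6.09 to 7.22 and 7.79, and the plasminogen activator PLAT (log2 0.91 ± 0.14), and 1 that fell, the thrombin receptor F2R (-0.82 ± 0.13). In the TNF family osteoprotegerin (TNFRSF11B), the decoy receptor that holds back osteoclasts, was at 6.08 and 6.45 on the luciferase arrays and 9.14 and 10.0 on the H3.X H3.Y arrays and TNFRSF21 at 6.86 and 6.71 in luciferase cells and 8.48 and 8.13 after the combined siRNA. IL31RA was the 1 call among 82 interleukin and receptor probe sets (1.23 ± 0.15). The immunoglobulin constant gene IGKC was chosen after its values were seen. It rose on 5 of its 13 probe sets, from 4.43 to 6.46 log2 units in luciferase cells to 5.21 to 8.24. The others did not pass, and which transcripts those 5 read was not tested.

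Among genes of the secretory pathway few were called, and some of these fell by large amounts. SRP9, a protein of the particle that brings ribosomes to the endoplasmic reticulum, was at 9.14 and 9.31 on the luciferase arrays and 6.53 and 6.52 on the H3.X H3.Y arrays, and its second probe set went from 8.45 and 8.73 to 5.96 and 6.25. SSR3 of the translocon-associated complex fell too (log2 -1.19 ± 0.18), yet the median of the 26 probe sets was -0.03, with 9 above and 11 below luciferase without overlap. STT3B, a catalytic subunit of oligosaccharyltransferase, was at 10.22 and 10.45 on the luciferase arrays and 8.21 and 8.45 on the H3.X H3.Y arrays, the 1 call of 27. Their median was -0.12, between -0.12 and -0.021 without 1 array, with 12 above luciferase without overlap and 11 below. Of 65 RAB GTPases RAB29 (log2 -0.94 ± 0.13) and RAB14 (-1.02 ± 0.15) fell and RAB5B (0.97 ± 0.14) rose. Coat proteins had 0 calls in 47. Chaperones and disulfide isomerases of the endoplasmic reticulum had 0 in 21, with 14 above luciferase without overlap and a median of 0.105, which was between 0.13 and 0.18 without 1 array. The Golgi glycosyltransferases GALNT5 (log2 1.86 ± 0.28), GALNT7 (0.74 ± 0.13) and B3GALT1 (1.72 ± 0.28) rose, 3 of 88, and the lysosomal cathepsin CTSV rose (1.77 ± 0.26) in a family of 45 with a median of 0.15.

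Of the genes of protein breakdown and folding, the proteasome and the cytosolic chaperonin lay on the lower side. The families that attach or remove ubiquitin did not, nor did the COP9 signalosome. Medians were 0.06 for E2 enzymes, 0.03 for F-box proteins and cullins, 0.03 for the COP9 signalosome and 0.01 for ubiquitin-specific proteases. Proteasome subunits had 6 of 51 probe sets that fell, 36 below luciferase without overlap, 6 above, and a median of -0.28. Those 6 are 3 genes, since PSMB8, an inducible catalytic subunit, is read by 3 probe sets with identical values (log2 -1.15 ± 0.19) and PSMC1, a base ATPase, by 2 (-0.85 ± 0.14 and -0.86 ± 0.14). The third was the core subunit PSMA1, from 10.84 and 10.88 to 10.07 and 10.0. UCHL5, a deubiquitinase that docks on the proteasome, went from 6.80 and 7.08 to 5.11 and 5.45 (log2 -1.66 ± 0.18). UBE2S, the enzyme that extends ubiquitin chains for the anaphase-promoting complex, fell on both probe sets (-1.52 ± 0.16 and -1.28 ± 0.14). FBXO32, a muscle atrophy ubiquitin ligase subunit, rose from 5.07 and 5.41 to 7.48 and 7.64 and FBXO28 fell from 8.56 and 8.53 to 6.94 and 7.12. Of the deubiquitinases USP53 rose (log2 1.52 ± 0.18) and USP28 fell (-1.14 ± 0.17). The cytosolic chaperonin and prefoldin, which fold actin and tubulin, had 13 of 17 probe sets below luciferase without overlap, a median of -0.27 and TCP1 as the 1 that fell, from 12.09 and 12.19 to 11.31 and 11.33. Heat shock and J proteins had 2 of 72 that fell, HSPE1 of the mitochondrial chaperonin (log2 -1.32 ± 0.12) and HSPA14 (-1.07 ± 0.16).

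Translation genes lay slightly on the lower side as whole families. Cytosolic ribosomal proteins had 90 of 102 probe sets below luciferase, 53 without overlap, and a median of -0.15, with 3 that fell. The brightest of the 10 level bins, where ribosomal protein genes mostly lie, had a median of -0.09. In that bin 47.0% of probe sets lay below luciferase without overlap. The 3 were RPL39L (log2 -1.22 ± 0.12), RPS24 (-0.86 ± 0.13) and 1 of 3 RPL27A probe sets (-1.06 ± 0.13), the brightest of which lay at -0.02 ± 0.14. Ribosomal protein genes have many processed copies, so their probe sets may read more than 1 locus. The initiation factor EIF4H fell on both probe sets (log2 -1.57 ± 0.14 and -1.5 ± 0.14), at 10.09 and 9.95 on the luciferase arrays and 8.51 and 8.38 on the H3.X H3.Y arrays. EEF1D fell on the dimmer of its 2 probe sets (-0.92 ± 0.15) and lay at -0.06 ± 0.16 on the brighter. PDCD4, an inhibitor of initiation, went from 7.39 and 7.51 to 5.57 and 5.92 (log2 -1.71 ± 0.16). Of 35 aminoacyl-tRNA synthetases EPRS1 fell (-0.82 ± 0.13). METTL2B fell on 3 probe sets (from -1.71 to -1.32). METTL2A, chosen after its value was seen, fell too (-1.63 ± 0.13). As these tRNA methyltransferase genes are near-identical copies, they count as 1 reading.

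Most mitochondrial families also had medians on the lower side, the carriers of the inner membrane being the exception. Mitochondrial ribosomal proteins had 69 of 77 probe sets below luciferase, a median of -0.16 and 5 that fell on 4 genes. They were MRPL42, from 8.33 and 8.51 to 6.09 and 6.61, MRPL35 (log2 -1.55 ± 0.19), MRPL50 (-1.46 ± 0.16) and MRPL20, read by 2 probe sets with identical values (-0.83 ± 0.14). Respiratory chain and ATP synthase subunits had 1 of 83 that fell, NDUFB6 of complex I (-1.24 ± 0.16), and a median of -0.12. Import proteins had 0 calls in 27, 15 below luciferase without overlap, 1 above and a median of -0.25, and mitochondrial carriers 0 in 49 with a median of 0.05. BNIP3, an outer membrane receptor for mitophagy chosen after its value was seen, fell (log2 -1.32 ± 0.14).

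In metabolism the enzymes that make, desaturate and activate fatty acids had 3 of 25 probe sets that fell, 0 that rose and a median of -0.21, or -0.13 without H3.X H3.Y replicate 2. The desaturase SCD was at 9.61 and 9.70 on the luciferase arrays and 8.51 and 8.65 on the H3.X H3.Y arrays, FADS2 at 8.74 and 8.90 in luciferase cells and 7.74 and 7.91 after the combined siRNA and the arachidonate-activating ACSL4 at 7.88 and 7.76 in luciferase cells and 6.13 and 6.33 after the combined siRNA. Cholesterol enzymes had a median of -0.21, between -0.33 and -0.083 without 1 array, and 0 calls in 20. Glycolysis gave PFKFB2 (log2 1.0 ± 0.13) and PDK2 (0.76 ± 0.12), regulators rather than enzymes of the main chain, as the 2 that rose of 29, with a median of -0.11. TXNIP, which binds thioredoxin and curbs glucose uptake, was at 7.28 and 8.11 on the luciferase arrays and 10.84 and 10.93 on the H3.X H3.Y arrays, and superoxide dismutase SOD1 went down from 10.90 and 10.97 to 9.90 and 10.03. DIO2, the deiodinase that activates thyroid hormone, was at 3.77 and 3.08 in luciferase cells and 6.27 and 5.70 after the combined siRNA, from the dim end.

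Of 339 solute carriers 5 rose and 4 fell, shares near those of all probe sets. The monocarboxylate carrier SLC16A7, from 6.73 and 6.89 to 4.85 and 5.05, the cationic amino acid carrier SLC7A2 (log2 -1.59 ± 0.20) and the zinc carrier SLC39A6 (-1.34 ± 0.17) fell, and the prostaglandin carrier SLCO2A1 rose (1.90 ± 0.22). CHRNA9, a nicotinic receptor subunit, was at 6.81 and 6.76 on the luciferase arrays and 4.43 and 4.32 on the H3.X H3.Y arrays, and the potassium channel partner KCNIP4 rose from 3.24 and 2.98 to 4.14 and 4.20. Sodium, calcium and TRP channels, ABC transporters, cytochrome P450 and aldehyde dehydrogenase genes had 0 calls. Taste and olfactory receptors, which are made mainly in sensory cells, had 0 calls in 408 probe sets, a median of 0.01, and 54 and 59 above and below luciferase without overlap.

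Other genes with large differences belong to none of these families. MEGF10, an engulfment receptor of glia and muscle precursors, was at 5.07 and 4.84 on the luciferase arrays and 8.61 and 8.95 on the H3.X H3.Y arrays. ODAPH, a gene known from tooth enamel, was at 4.02 and 4.03 on the luciferase arrays and 7.47 and 7.11 on the H3.X H3.Y arrays, with 6.49 and 4.76 after H3.Y siRNA. In both the groups were far apart. On the lower side TMEM209 of the nuclear envelope went from 8.09 and 8.65 to 6.41 and 6.58 (log2 -1.87 ± 0.22), the neuropeptide gene SPX from 6.18 and 6.51 to 4.39 and 4.64 (-1.83 ± 0.26), the polarity scaffold LIN7C from 7.62 and 8.04 to 5.88 and 6.13 (-1.82 ± 0.21), PHTF2 from 7.90 and 7.90 to 6.0 and 6.30 (-1.75 ± 0.26) and the peptidase neurolysin, NLN, from 7.88 and 7.86 to 6.11 and 6.23 (-1.70 ± 0.14).

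MicroRNAs are short RNAs that pair with messenger RNAs through their seed, bases 2 to 8, and lower their translation or stability. The array reads their genes or longer precursors and not the mature forms. Of 185 probe sets whose symbol is that of a microRNA gene or its host transcript 2 rose and 0 fell, and most lay in the dim range, 154 of them under 5 log2 units. MIR21 was at 5.91 and 6.15 on the luciferase arrays and 7.78 and 8.01 on the H3.X H3.Y arrays (log2 1.87 ± 0.15, adjusted p = 0.013 in limma), and MIR221 at 4.96 and 4.96 on the luciferase arrays and 6.40 and 6.98 on the H3.X H3.Y arrays (1.73 ± 0.25, adjusted p = 0.032). MIR222, the neighbour of MIR221, was at 2.69 and 2.35 on the luciferase arrays and 2.88 and 2.58 on the H3.X H3.Y arrays and did not pass. Their mature sequences, from RefSeq in GRCh38.p14, are shown because miR-221 and miR-222 share the seed in capitals while miR-21 has another.
hsa-miR-21-5p: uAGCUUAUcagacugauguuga
hsa-miR-221-3p: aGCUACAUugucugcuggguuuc
hsa-miR-222-3p: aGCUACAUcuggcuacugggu
These lie at chr17:59841273-59841294 on the plus strand, and at chrX:45746180-45746202 and chrX:45747036-45747056 on the minus strand. Genes published as targets of these microRNAs were listed after the values were seen, so they are no independent evidence. Of 18 listed 16 were measured on 17 probe sets, 4 genes rose (SPRY2, TIMP3, RHOB and JAG1), 1 fell (PDCD4), and the median was 0.32. The cell cycle inhibitor CDKN1B at 0.77 ± 0.19 and SMAD7 at 0.42 ± 0.16 did not pass. Of 17 probe sets for the proteins of the microRNA pathway itself PRKRA, a partner of Dicer, fell (log2 -0.93 ± 0.16).

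To see where the combined siRNA differed from H3.Y siRNA alone, both were compared in the same limma fit. Of the 19460 probe sets 1297 passed, or 6.66%, of which 779 were higher and 518 lower after the combined siRNA. Before adjustment 4740 had a p under 0.05. The count was 11 without H3.X H3.Y replicate 1 and 37 without replicate 2. It was 392 without H3.Y replicate 1, 1330 without H3.Y replicate 2, and 388 without either luciferase array or both, arrays that add to this comparison through the estimate of spread alone. Both comparisons share the H3.X H3.Y arrays, so the values are given side by side and no overlap is drawn from them.

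Matrix genes were among those that parted the siRNAs. COL6A3 stood at 8.83 and 8.70 after luciferase siRNA, 7.24 and 7.47 after H3.Y siRNA and 9.76 and 9.56 after the combined siRNA, a difference between the siRNAs of log2 2.31 ± 0.15 (adjusted p = 0.005). LOXL4, which had risen over luciferase, stood at 4.72 and 5.30 after H3.Y siRNA (3.72 ± 0.21), and HAPLN1 at 3.57 and 4.71 (4.68 ± 0.34). In all 3 the control lay between the siRNAs. TNFRSF11B followed the same order, with 5.36 and 5.63 after H3.Y siRNA (log2 4.08 ± 0.30), as did PDGFC, with 6.66 and 7.18 (2.08 ± 0.19). Of 21 collagen-modifying and 45 collagen probe sets 6 each were higher after the combined siRNA and 0 lower. Over all 19460 probe sets 779 were higher and 518 lower, the background for these counts. Not all matrix families had this direction. Of 23 matrix metalloproteinase probe sets 1 was higher and 3 lower, and of 30 for matricellular proteins 5 were higher and 2 lower. Protocadherins gave 15 of 41 higher and 0 lower, with PCDHB5 at 5.07 and 5.57 after H3.Y siRNA and 7.60 and 7.57 after the combined siRNA (log2 2.27 ± 0.24). Interferon-induced genes gave 8 of 38 higher and 0 lower. TMEM156 ran the other way, at 8.38 and 7.93 after H3.Y siRNA, 6.55 and 6.96 after luciferase and 4.52 and 5.03 after the combined siRNA (log2 -3.38 ± 0.25). SRP9 lay near its luciferase level after H3.Y siRNA, at 9.45 and 9.29, and lower after the combined siRNA (-2.84 ± 0.14).

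For other genes the difference between the siRNAs did not pass, which does not show that they act alike. FBXO32 lay at 7.56 and 6.93 after H3.Y siRNA, a difference between the siRNAs of log2 0.32 ± 0.24 (adjusted p = 0.57). FADS2 (0.03 ± 0.15, adjusted p = 0.95), HMMR (-0.05 ± 0.26, adjusted p = 0.95) and the condensin subunit NCAPG (-0.12 ± 0.14, adjusted p = 0.74) were other cases, with standard errors that leave room for real differences. GNAQ lay at 6.38 and 6.27 after H3.Y siRNA on its brighter probe set (-0.11 ± 0.24) and VEGFC at 8.60 and 8.38 (-0.29 ± 0.14). Cell division genes parted the siRNAs in part: MAD2L1 was lower after the combined siRNA than after H3.Y siRNA (log2 -1.57 ± 0.16, adjusted p = 0.0082), as was KNL1 (-1.03 ± 0.14), while NSL1 at 0.58 ± 0.15 and NUF2 at -0.43 ± 0.16 did not pass.

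**Figure D5:**
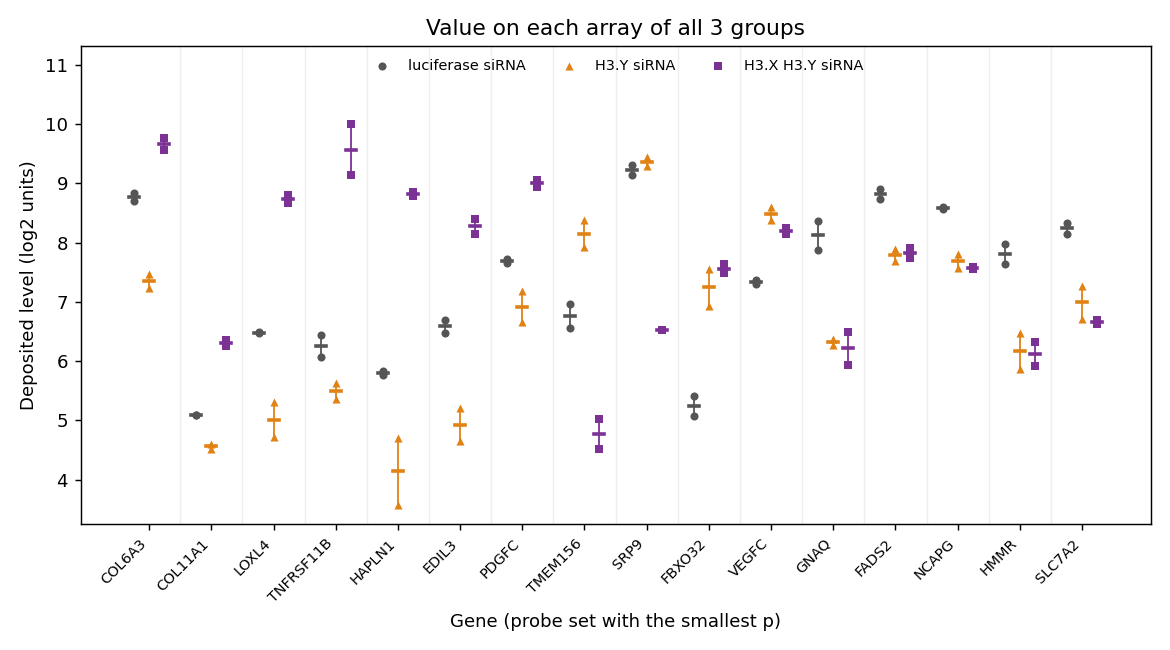
Deposited log2 levels of 16 genes on each array of luciferase siRNA (circles), H3.Y siRNA (triangles) and H3.X H3.Y siRNA (squares), with group means as short bars and a thin line joining the arrays of a group. From COL6A3 to SRP9 the squares stand clear of the triangles, and from FBXO32 to SLC7A2 the squares and triangles lie together and away from the circles.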

How the data were processed

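RNA of U2OS cells was measured on 6 Affymetrix gene arrays, 2 per group, labelled with biotin by the standard protocol per the labels. The authors deposited 1 processed value per probe set, made with oligo, a Bioconductor package, per the submitters' processing notes. Its version and settings, and the genome build, were not given in the sources used here. That these deposited values are log2 was inferred from their range, 0.687 to 14.0. They were already on a common scale, so a change shared by most genes would not be seen. Probe sets were named from the platform annotation, with symbols updated through RefSeq GRCh38.p14; 1754 with several symbols and 12083 unnamed ones were fitted but not described.

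limma 3.58.1 in R 4.3.3 (lmFit, eBayes, no added offset) was fitted to all 33297 probe sets on all 6 arrays with 1 mean per group, and p-values were adjusted over all of them by Benjamini-Hochberg. The script was tested on simulated data. Precision is limited by the number of arrays. The members, families, marker lists and settings were chosen with earlier results of these data known. Named by rule were up to 4 called probe sets per family by smallest p (up to 2 as values where none was called) and ranks 1 to 25 by size of difference in each direction. Most genes chosen later are said to be so. MAP3K1 and MAP4K5 complete a count, and PCDHB5 and MIR222 also lie outside the rule. A few genes and families that this rule names are not reported here. Alternatives were the replicate block, only the 4 arrays compared, renormalization, median centring, a filter on dim probe sets, another prior, adjustment over named probe sets, 1 probe set per gene and leaving out each array.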

Additional observations from a re-analysis of the deposited data

How the results depend on the processing

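Against luciferase, leaving out 1 H3.X H3.Y or luciferase array gave 0 calls in limma in total, higher and lower, with 2010 to 2646 unadjusted p under 0.05, and leaving out either H3.Y array gave 537 (265 higher, 272 lower). Without probe sets dimmer than the 0.25 quantile 787 were called (374 higher, 413 lower), and a trended, robust prior called 421 lower; the first tests fewer probe sets, and the cause of the second was not tested. The other alternatives gave 500 to 771 calls. Against H3.Y siRNA, leaving out 1 array gave 11 to 1330 calls, 9 to 731 higher and 2 to 599 lower. The 4 arrays compared alone gave 388 (263 higher, 125 lower), against 1297 with all 6 arrays. The same cut to 4 arrays in the luciferase comparison gave 537, against 519. The standard deviation of the difference between replicate arrays was 0.419 for H3.Y, 0.333 for luciferase and 0.304 for H3.X H3.Y. Why the count against H3.Y siRNA dropped was not tested. With the replicate number as a block 592 and 1417 were called. Same-numbered arrays deviated together with correlations of 0.12 to 0.28, but the labels do not say that a number marks a shared batch, and 2 numbers do not settle whether it does. With the block 21 of the called probe sets followed, of 20 genes, did not pass, at adjusted p between 0.0502 and 0.0612 (ATR, COL5A1, COL6A3, CXCL10, F2R, FKBP14, GALNT7, JAG1, LRRFIP1, MRPL20, MYH15, MYO1D, NR3C2, PRKRA, TGFB2, TGFB3, TIAM2, VDR, ZNF365 and ZNF543). Of the 252 called probe sets followed, 207 to 252 kept their call in the fits with all 4 compared arrays (251 of 251 without dim probe sets). Under any alternative 0 reversed, but leaving out arrays could not reverse a called probe set, since its groups did not overlap. Family medians over 0.1 in size did not change sign in any of the 14 settings tried, but 19 of 41 moved by over 1.5 times without 1 of the 4 arrays compared. In dim genes such as LUM the floor of the array limits the size of a fold.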
